A study of Mus musculus with 12 samples.

Results

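The genes described here are 10 genes of the unfolded protein response and of protein folding in the endoplasmic reticulum (ER), chosen by name from the 25239 genes of the expression table: the sensors Ern1, Atf6 and Eif2ak3, the transcription factor Xbp1, the ER-associated degradation genes Edem1, Herpud1 and Sel1l, and the folding genes Pdia4, Calr and Canx. All 10 had a p-value in that table, as did 16167 genes in all. The cells were HT22, an immortalised wild-type line of mouse hippocampal neurons, treated with 800 μM mesaconitine (MA, a diester-diterpenoid alkaloid of Aconitum plants, dissolved in DMSO) for 72 h or left at 0 μM as control. Methylated RNA immunoprecipitation sequencing (MeRIP-seq) used polyadenylated RNA that had been fragmented, of which a part was kept as input and the rest was enriched with an antibody to N6-methyladenosine (m6A). The 12 libraries fall into 4 groups of 3, namely MA IP, MA input, control IP and control input, all from 1 line, so that the error of every value is the spread between libraries of a single line.

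The ER folds proteins that enter the secretory pathway, and when unfolded proteins build up in its lumen a signalling response follows. Its sensors are IRE1α (encoded by Ern1), ATF6 (Atf6) and PERK (Eif2ak3). IRE1α splices the Xbp1 mRNA so that it encodes an active transcription factor, ATF6 is cut by Golgi proteases to release another, and PERK phosphorylates eIF2α, which slows translation while favouring that of ATF4. XBP1 and ATF6 are known to raise chaperones and the machinery of ER-associated degradation (ERAD), which carries misfolded proteins out of the ER to the proteasome, and ATF4 is known to raise amino acid synthesis genes and Ddit3. Splicing of Xbp1, cleavage of ATF6 and phosphorylation of PERK cannot be read from a gene's total RNA.

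The values come from the authors' deposited DESeq2 table, which holds no value of a single library. Each gene has a base mean (its normalised count averaged over libraries), the log2 fold change with a standard error (SE), and a p-value before and after adjustment. A gene is called here when its unadjusted p is under 0.05 and it changed more than 1.2-fold (0.26 on the log2 scale). The sign of the deposited change was reversed so that positive values mean higher in MA. The table names neither its numerator nor the libraries it compares. The study's own materials carry both signs for these values, since its list of m6A regulators keeps the deposited sign as the change after MA and another of its gene lists has the reverse. Every "higher", "lower", "rose" and "fell" for expression below rests on the reversal and would swap without it. The study's text places lysosome and V-type ATPase terms among genes upregulated after MA, and the extracellular matrix among downregulated ones. With the reversal, Atp6v1a was at 0.61, Atp6v1h at 0.64 and Atp6v0e2 at -0.036. Col1a1 was at -0.94 and Col3a1 at -1.42. Apart from Atp6v0e2, these named genes have the direction of that text. Over the 131 genes with an m6A peak and an expression p under 0.0001, the reversed change had a Spearman's rho of 0.61 with the IP reads (MA over control, log2, summed over the gene's peaks) and of -0.069 with the input reads. These correlations are across genes of the same pooled libraries, and whether input or IP libraries entered the expression table cannot be told apart here. Of 8 neuronal marker genes, 5 (Map2, Snap25, Dcx, Nefl and Nefm) were listed at a base mean of 0, and Tubb3, with 473, had the highest. Of 6 fibroblast markers, all had a base mean of at least 145, the highest was Col3a1 with 134804, 4 were called lower and none higher.

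The members did not move together after MA treatment. Of the 10 members, 2 rose (Eif2ak3 and Herpud1), 2 fell (Calr and Pdia4) and 6 were not called. Among all tested genes, 6.8% were called higher and 7.07% lower. The median log2 fold change of the members was -0.05, beside -0.01 over all tested genes. At an unadjusted p under 0.05 and any fold, 4 members were higher and 3 lower, a total of 7 of 10, where 20.9% of all tested genes passed. That share is not matched for precision, since the median SE of all tested genes was 0.174 and those of the members ran from 0.054 to 0.128. Of the 4782 tested genes with at least the base mean of Herpud1, the lowest member, 9.6% were called higher and 9.49% lower. Herpud1, at 0.47, and Calr, at -0.44, were furthest apart, and their difference of 0.91 on the log2 scale does not depend on how the libraries were scaled, since a scale factor moves every gene alike. No member changed by more than 1.5-fold. In bulk RNA, fewer cells that express a gene and less of its RNA per cell cannot be told apart.

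**Figure D1:**
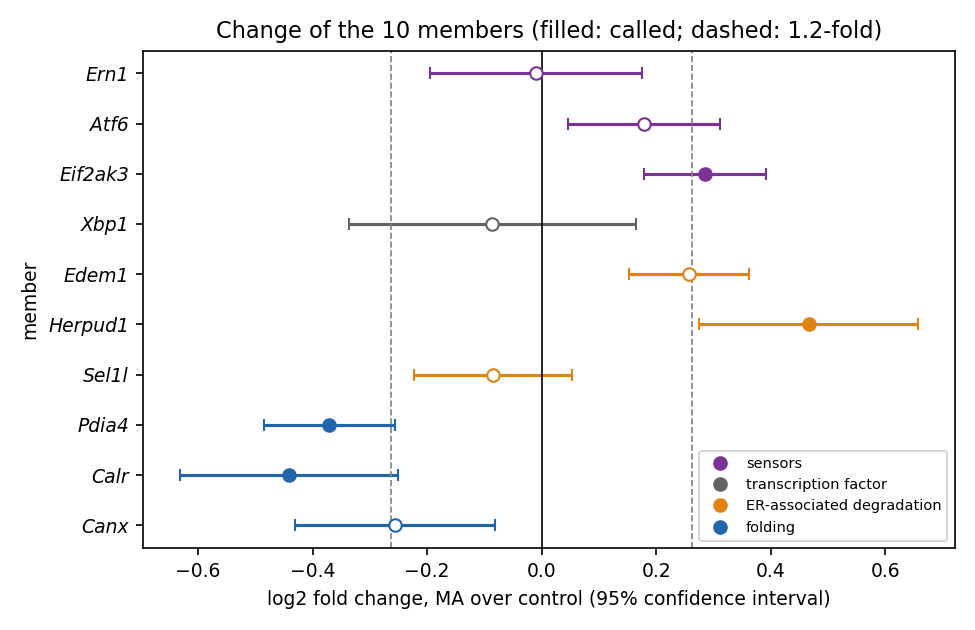
The log2 fold change of each member (MA over control, x axis) is drawn as a point with its 95% confidence interval, coloured by role, with filled points for called genes and dashed lines at 1.2-fold. Eif2ak3 and Herpud1 lie to the right of 0 and Calr and Pdia4 to the left, and Edem1 and Canx sit just inside the dashed lines. Lowering all values by 0.1 would take Eif2ak3 out of the called genes and bring Canx in.

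The folding members were by far the most abundant. Per kilobase of the coding transcript, Calr had a base mean of 41234, Canx of 15076 and Pdia4 of 7410, while the other 7 members lay between 289 (Ern1) and 1524 (Sel1l). Between these ends came Edem1 at 1180, Eif2ak3 at 1111, Xbp1 at 1101, Herpud1 at 906 and Atf6 at 865. The table gives no error for a base mean, so neighbours as close as Eif2ak3 and Xbp1 have no tested order. Only 0.155% of the tested genes had a higher base mean than Calr, against 29.6% for Herpud1, the lowest member before correction for length. Counting error is small at these levels. With 3 libraries a group it would give an SE of 0.028 for Herpud1 and 0.004 for Calr, where the deposited SEs were both 0.097. The deposited errors were thus larger than counting alone would give, and what set them was not tested.

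**Figure D2:**
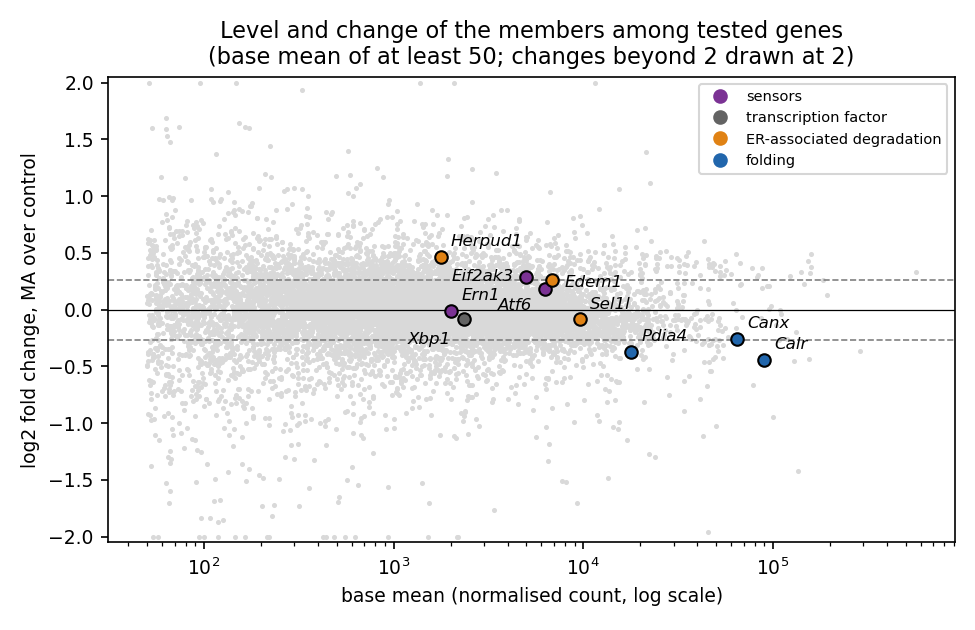
Each grey point is a tested gene with a base mean of at least 50, placed by its base mean (x axis, normalised count on a log scale) and its log2 fold change (MA over control, y axis, values beyond 2 drawn at 2). The members are coloured by role, dashed lines mark 1.2-fold, and the 3 folding genes are the rightmost members and lie below 0.

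Among the sensors, Eif2ak3 (PERK, chr6:70844515-70905245, + strand, 17 exons, positions of genes on mm10 from GENCODE) was the one called. Its base mean and fold change imply levels of 4519 normalised counts in control and 5508 in MA cells, taking both groups to have the same number of libraries, a fold of 1.22 (95% confidence interval 1.13 to 1.31). Its log2 fold change was 0.29 ± 0.05 (SE), with an adjusted p of 4.15e-06 by DESeq2. It exceeded the 1.2-fold line by 0.023 on the log2 scale, and 19.4% of the tested genes were further up. Exons of Eif2ak3 overlap the gene Gm43292 on the opposite strand. The libraries came from a stranded kit, but the counting setting is not given in the sources used here, so reads of the pair may not be separated.

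Atf6 (chr1:170704674-170867771, - strand, 16 exons) stood at 5879 in control and 6656 in MA cells by the same calculation, a fold of 1.13 (1.03 to 1.24). Its change of 0.18 ± 0.07 had an unadjusted DESeq2 p of 0.0078 and an adjusted p of 0.051, and it was under the fold threshold. Ern1 (IRE1α, chr11:106394650-106487852, - strand, 22 exons), the least abundant member per kilobase, stood at 2016 in control and 2003 in MA cells, a fold of 0.99. The interval of that fold, 0.87 to 1.13, holds no change above 1.2-fold in either direction, whereas the intervals of Atf6 and Eif2ak3 do. The change of Eif2ak3 was larger than that of Ern1 by 0.30 and than that of Atf6 by 0.11 on the log2 scale, and these differences between genes of the same libraries were not tested.

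Xbp1, the transcription factor that IRE1α activates by splicing (chr11:5520659-5525893, + strand, 5 exons), stood at 2414 in control and 2274 in MA cells. The fold of 0.94 had an interval of 0.79 to 1.12 and a DESeq2 adjusted p of 0.77. With an SE of 0.13 it was the least precisely measured member, and a fall of 1.2-fold is inside its interval.

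Of the ERAD members 1 was called, Herpud1. Herpud1 (chr8:94386438-94395377, + strand), which encodes a membrane protein that helps to assemble the HRD1 ubiquitin ligase complex, showed the largest change of the 10. Its implied level went from 1485 in control to 2052 in MA cells, a fold of 1.38 (1.21 to 1.58), with a log2 fold change of 0.47 ± 0.10 and an adjusted p of 3.79e-05 by DESeq2. Herpud1 was the only member whose whole 95% interval lay beyond 1.2-fold, and 12.8% of tested genes were further up. Edem1 (chr6:108828641-108859356, + strand), a lectin that takes mannose-trimmed glycoproteins into ERAD, stood at 6255 in control and 7479 in MA cells. Its log2 fold change of 0.26 ± 0.05 had an adjusted p of 3.46e-05, close to that of Herpud1, but its margin to the fold threshold was -0.0051 on the log2 scale, so that it was not called. Sel1l (chr12:91806043-91849157, - strand), the adaptor that holds the HRD1 complex together, was the most abundant ERAD member, with 9881 in control and 9317 in MA cells. Its fold of 0.94 had an interval of 0.86 to 1.04, which holds no rise of 1.2-fold and no fall of that size, and its adjusted p was 0.53. The change of Herpud1 exceeded that of Sel1l by 0.55 on the log2 scale.

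The 3 folding members were all lower in MA cells at an unadjusted p under 0.05, and 2 were called. Calr (chr8:84841850-84846934, - strand) encodes calreticulin, the soluble lectin chaperone and calcium store of the ER lumen. It stood at 103694 in control and 76414 in MA cells, the largest fall in normalised counts among the members, with a fold of 0.74 (0.65 to 0.84), a log2 fold change of -0.44 ± 0.10 and an adjusted p of 1.17e-04 by DESeq2. Pdia4 (chr6:47796141-47813430, - strand), which encodes the protein disulfide isomerase ERp72, went from 20046 to 15505, a fold of 0.77 (0.71 to 0.84) with an adjusted p of 1.05e-08, the smallest p among the members. Canx (chr11:50293961-50325673, - strand) encodes calnexin, the membrane-bound partner of calreticulin in glycoprotein folding. It went from 70263 to 58817, and its log2 fold change of -0.26 ± 0.09 had an adjusted p of 0.030, with a margin to the fold threshold of -0.0065. Among the 324 tested genes with a base mean at or above that of Pdia4, 18.5% were called lower and 21.3% higher, and their median change was -0.06. Of the 50-base stretches of the Calr transcript, 0.468% also occur in the pseudogene Calr-ps. No such stretch of the other members occurs in another gene, although Mir704 lies within Pdia4 on the same strand.

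The folding genes Calr and Canx, and Herpud1, carry known promoter elements of this response. The ER stress response element (ERSE, CCAAT, then 9 bases, then CCACG) is bound by ATF6 together with NF-Y, ERSE-II (ATTGG, 1 base, CCACG) by ATF6 and XBP1, and the unfolded protein response element (UPRE, TGACGTGG) by XBP1. Both strands of RefSeq promoters (GRCm38.p6, from 250 bases before to 50 bases after each transcript start) were searched. Of the members, 9 were matched in the table, all but Atf6. Of 32851 promoters, 39 (0.119%) held ERSE, 12 (0.0365%) ERSE-II and 222 (0.676%) UPRE. The patterns can overlap by sharing CCACG, which UPRE holds on its other strand, but no matches in a member did.

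The windows below are read 5′ to 3′ along the strand of the motif, with the fixed bases of the motif in capitals and up to 5 bases on each side, and they are shown because they are the matches in members that were lower (Calr, Canx and Pdia4) and in the member that rose most (Herpud1). Genome coordinates are those of the whole window, and positions from the transcript start are those of the motif alone. The Calr window lies at chr8:84847070-84847098 (+ strand of the genome, opposite to the gene, motif at -162 to -144). That of Canx lies at chr11:50325795-50325823 (- strand, the strand of the gene, motif at -145 to -127). The Herpud1 window is at chr8:94386372-94386392 (+ strand, motif at -52 to -42) and that of Pdia4 at chr6:47813597-47813624 (+ strand, opposite to the gene, motif at -107 to -90).
Calr ERSE: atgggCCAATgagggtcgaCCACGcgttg
Canx ERSE: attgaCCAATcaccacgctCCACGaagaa
Herpud1 ERSE-II: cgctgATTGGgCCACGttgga
Pdia4 ERSE without its last base: gaccaCCAATcacgggctgCCACtcggt
The Pdia4 promoter holds no full ERSE. With the last base left out, a form added after the first search had been seen, ERSE was found in 120 promoters (0.365%), among them those of Pdia4 and Herpud1 beside Calr and Canx. No UPRE was found in the 9 member promoters, and no match of any of these forms in those of Ern1, Eif2ak3, Xbp1, Edem1 and Sel1l, which says only that these letters are not in these windows.

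ERSE also occurred in 8 of 103 promoters of other listed ER genes. To set the members beside well-known targets of the response, the windows of Hspa5 (chr2:34772020-34772048, + strand), of Hsp90b1 (the nearer of 2 matches, chr10:86705528-86705556, + strand, opposite to the gene) and of Pdia6 (chr12:17266486-17266514, + strand) are given, the last chosen after its value was seen.
Hspa5 ERSE: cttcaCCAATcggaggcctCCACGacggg
Hsp90b1 ERSE: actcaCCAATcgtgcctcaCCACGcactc
Pdia6 ERSE: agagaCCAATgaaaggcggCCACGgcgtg
The same element stood before genes that did and did not change. Hspa5, which encodes the chaperone BiP, had a log2 fold change of -0.06 ± 0.09 with an adjusted p of 0.74, while Hsp90b1 (GRP94), at -0.44 ± 0.06, and Pdia6, at -0.34 ± 0.06, were called lower. Of the 23 tested genes with ERSE, 3 were called lower (Calr, Hsp90b1 and Pdia6) and none higher, and their median was -0.06. Of the 9 tested genes with ERSE-II, 1 (Herpud1) was called higher and none lower, with a median of 0.10. These counts are small, and among all tested genes 6.8% were called higher and 7.07% lower. A match describes the sequence and does not show that a factor binds there.

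**Figure D3:**
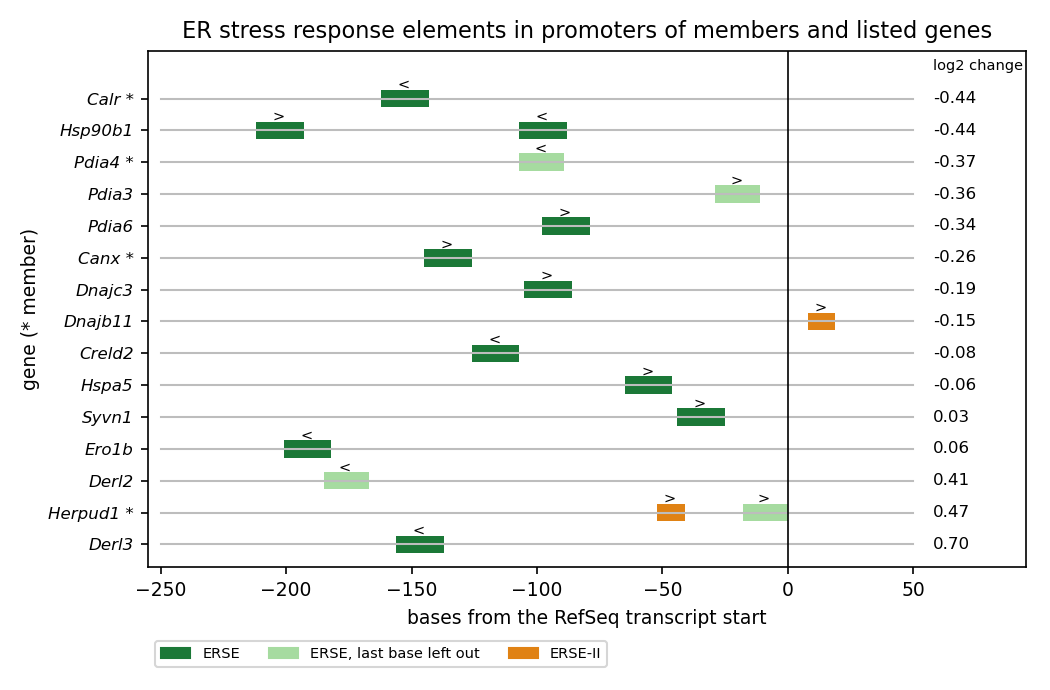
Promoters of members (marked *) and listed ER genes that hold ERSE, ERSE without its last base or ERSE-II are drawn from 250 bases before to 50 bases after the transcript start (x axis, bases from the start), ordered by their log2 fold change (MA over control), which is printed at the right. Arrows give the strand of the motif relative to the gene. Genes with a full ERSE range from -0.44 (Calr) to 0.70 (Derl3, not called). Derl3 had a base mean of only 8.99 and an SE of 1.31, and the next highest was Ero1b at 0.06.

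The other genes of the pathway were described by lists of known function, with 128 genes in all, each tested. Of these, 11 were called higher and 17 lower, with a median of -0.04. The shares over all tested genes, to be set beside this and every list count below, were 6.8% higher and 7.07% lower. They are not matched for level. Among genes with at least the base mean of Herpud1 the shares were 9.6% higher and 9.49% lower. With at least that of Pdia4 they were 21.3% and 18.5%, which bears on the lists with abundant genes. Most genes listed as PERK branch effectors were called higher, as Eif2ak3 was. Of 7 PERK branch effectors, 6 rose and none fell, with a median of 0.48. Atf4, the transcription factor whose translation PERK favours, rose by 0.36 ± 0.05 with an adjusted DESeq2 p of 9.32e-10, Asns (asparagine synthetase) by 0.69 ± 0.10 with 4.82e-11, and Ddit3 (CHOP, a transcription factor linked to cell death under stress) by 0.48 ± 0.14 with 0.0047. The gene not called was Eif2s1, which encodes the PERK substrate eIF2α, at -0.12 ± 0.05 with an unadjusted DESeq2 p of 0.024. Several of these effectors also respond to other kinases of eIF2α, which are activated by amino acid shortage and other stress, so the list is not particular to PERK.

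Among 19 sensor partners and regulators, 2 rose and 5 fell, with a median of -0.04, while raising all values by 0.1 gave 4 higher and 3 lower. Ppp1r15a (GADD34, the phosphatase subunit that reverses eIF2α phosphorylation) rose by 0.57 ± 0.11, with an adjusted p of 3.99e-06. Mbtps2, the site-2 protease that releases ATF6, rose by 0.32 ± 0.10, with an adjusted p of 0.016. Creb3l1, a transcription factor related to ATF6 that acts in collagen-secreting cells, was at -0.69 ± 0.10 with an adjusted p of 2.1e-09, and Nck1, an adaptor known to bind IRE1α and PERK, was at -0.54 ± 0.09 with an adjusted p of 3.65e-08.

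Of 26 luminal chaperones and cochaperones, 4 fell and none rose, with a median of -0.10. Centred on the median gene 1 was higher and 4 lower, and with all values raised by 0.1, 1 and 2. Serpinh1 (HSP47, the collagen chaperone) had the smallest p, at -0.60 ± 0.05 with an adjusted p of 9.36e-26, next to Hsp90b1 with 3.69e-11, whose change was within 0.01 of that of Calr on the log2 scale. The collagen genes Col3a1, at -1.42 ± 0.04, and Col1a1, at -0.94 ± 0.04, also fell, and their part in the change of the folding genes was not tested. Dnajb9 (ERdj4, a cochaperone that represses IRE1α) had a change of 0.26 ± 0.13, an unadjusted p of 0.043 and an adjusted p of 0.18, and was under the fold threshold. Of 19 disulfide isomerases and ER oxidases, 4 fell and none rose, with a median of -0.02, but this split rests on the scaling, with 1 higher and 4 lower after centring and 2 higher and 1 lower with all values raised by 0.1. The smallest p-values were those of P4hb at -0.31 ± 0.04 and Pdia3 (ERp57, the partner of calnexin and calreticulin) at -0.36 ± 0.05, with adjusted p-values of 9.23e-11 and 3.15e-10. The change of Pdia3 was within 0.01 of that of Pdia4. No gene of the 10 in the glycoprotein folding cycle, which serves Calr and Canx with trimmed glycans, was called, and 3 of them had an unadjusted p under 0.05, by DESeq2, with a list median of -0.04.

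Of 26 other ERAD genes, 1 rose and 2 fell, shares near those of all tested genes, with a median of 0.02. Lowered by 0.1 the list had 4 called lower and none higher, and raised by 0.1 it had 2 higher and none lower. Aup1, a lipid droplet protein of the HRD1 pathway, rose by 0.31 ± 0.06, while Vcp (p97, the ATPase that pulls substrates out of the ER) was at -0.34 ± 0.06 and Selenos, which recruits it, at -0.29 ± 0.09, with adjusted p-values of 4.41e-05, 5.66e-07 and 0.013. Lowering or raising every change by 0.1 turned the split of called genes over all lists from 11 higher and 17 lower into 7 and 31 or 20 and 7, while the PERK branch effectors kept 5 or 6 genes called higher and none lower.

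**Figure D4:**
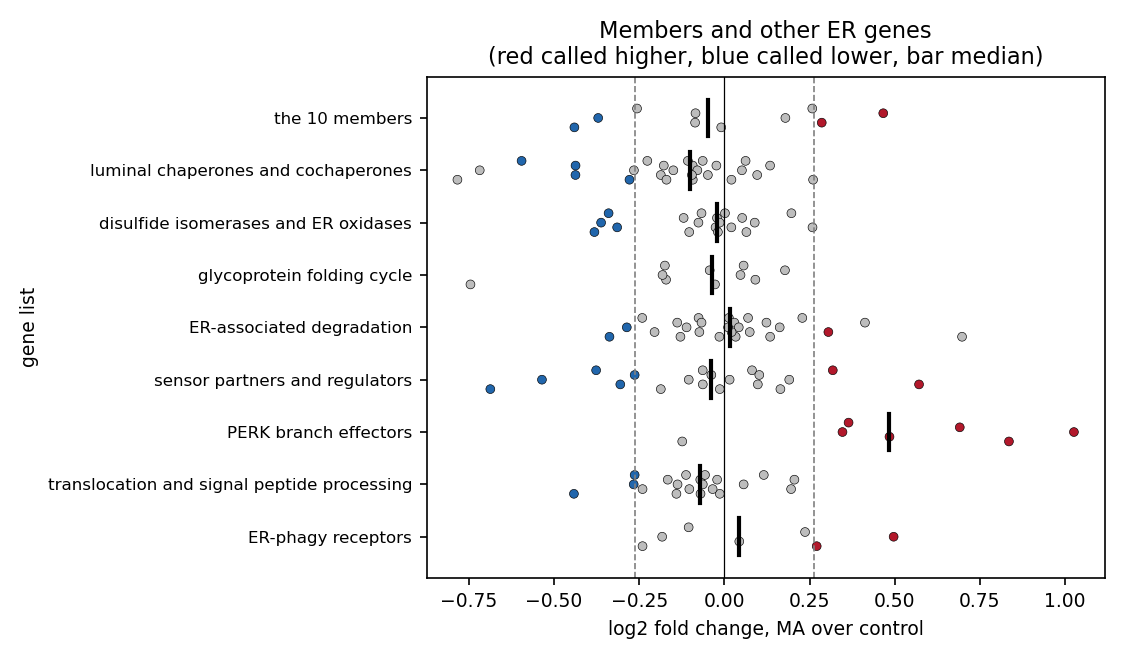
Each point is 1 gene of the list named on the y axis, placed by its log2 fold change (MA over control, x axis), red if called higher, blue if called lower and grey if not called, with a black bar at the list's median and dashed lines at 1.2-fold. The medians of the 9 rows lie between -0.10 and 0.48, and 6 of the 7 PERK branch effectors are red.

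No peak on any of the 10 members was listed in the deposited m6A table. The authors' exomePeak2 table lists 2643 peaks that name 2171 genes or groups of genes, and no peak named a member or overlapped a member's gene by position on mm10. Of the 4782 tested genes with at least the base mean of the lowest member (Herpud1), 822 (17.2%) had a listed peak, and of the 1341 at or above the members' median, 159 (11.9%) did. The study describes more peaks than this table holds, so a peak called on a member outside it would not be seen here, and a gene without a called peak may still be methylated. There was therefore no member peak in which to count the m6A core GGACT, which occurred in 153 of the 1867 peaks of at most 300 bases (8.19%).

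Of the other listed ER genes, 13 were named alone by 16 peaks in all, and Fkbp2 shared the name of a further peak with another locus, which was not counted. Of the 16, 6 peaks on 5 genes were called higher in MA and none lower. Among all 2642 peaks with a p-value, 25.2% were called higher and 5.94% lower. The closest to the sensors was Mbtps2, whose peak at chrX:157559064-157561405 spans 25 coding bases and intron sequence. Its reads, pooled over the replicates, were 141 input and 76 IP in control and 59 input and 203 IP in MA, and its log2 ratio of IP to input went from -0.49 to 1.63, a difference of 2.12, for which exomePeak2 fitted a change of 1.96 with an adjusted p of 9.62e-05. Ppp1r15b, the counterpart of Ppp1r15a that acts without stress, had 2 peaks, both called. The wider lies at the start of its coding sequence (chr1:133131741-133131840). It had 128 input and 79 IP reads in control and 49 input and 172 IP reads in MA. The difference between its log2 ratios was 1.97, and exomePeak2 fitted a change of 1.80 with an adjusted p of 3.05e-04. The expression change of Mbtps2 was called higher and that of Ppp1r15b, at 0.08 ± 0.08, was not. Whether input or IP libraries gave these expression values cannot be told apart, so they are not shown to be separate from the peak changes. In control the log2 ratio of IP to input was negative at the Mbtps2 peak (-0.49) and at the wider Ppp1r15b peak (-0.31). Pooled input reads at both peaks were fewer in MA than in control, and their part in the change of the ratio was not tested.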

How the data were processed

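MeRIP-seq and input libraries of HT22 cells (3 per group) were used as the authors' deposited comparison tables. The authors used fastp for trimming, HISAT2 for alignment to mm10, StringTie for quantification, DESeq2 for the comparison of MA with control and exomePeak2 for peaks (size factors from background regions). Tool versions are not given in the sources used here. The authors' deposited base mean is a signal (mean normalised count), and the standard error and Wald statistic are scores that the authors' table gives. The p-values and the changes of peaks are as deposited, and the log2 fold changes of expression are the deposited ones with the sign reversed. Read counts per peak were deposited by the authors pooled over replicates. There were 0 columns of single libraries, which left out a count model. Library depths were not analysed here.

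Calls needed a change of more than 1.2-fold at an unadjusted p under 0.05. Group levels were computed from base mean and fold change. Gene models came from GENCODE M21 (the transcript with the longest coding part), promoters from RefSeq (GRCm38.p6, the build of mm10), and printed windows were read again from the genome. Of the listed symbols, Ero1a and Ero1b were matched as Ero1l and Ero1lb. Named genes were all members, Hspa5, Hsp90b1, Dnajb9, Ddit3, Atf4, Ppp1r15a, and in each list the 2 called genes with the smallest p in each direction. Others named were chosen after their values were seen. The members, lists and tests were chosen with earlier results of these data known. Scripts were tested on simulated data, with Python 3.11.15, pandas 2.3.3, numpy 2.4.6, scipy 1.17.1 and matplotlib 3.10.9. No statement on whether the replicates were separate cultures was found, so p-values measure the spread between these libraries, which may be technical.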

Additional observations from a re-analysis of the deposited data

How the results depend on the processing

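The 4 called members had the same calls with an adjusted p under 0.05 and with a base mean of at least 50. Without a fold threshold 7 members passed, 4 higher (Atf6 and Edem1 added) and 3 lower (Canx added), and with 1.5-fold 0 passed, 0 higher and 0 lower. Centring on the median gene added Edem1 and turned Ern1 to 0.0030. Shifts of all values by 0.1, chosen after the data were seen, left 1 member higher when lowered (Herpud1, with Canx added to the lower ones) and 4 when raised. Raised by 0.1, Ern1 was at 0.091, Xbp1 at 0.014 and Sel1l at 0.015, each with its sign turned. Over the lists, 28 genes were called (11 higher, 17 lower), 50 without a fold threshold (20 and 30), 5 at 1.5-fold (3 and 2), 7 higher and 31 lower after lowering by 0.1, and 20 and 7 after raising. The 6 called peaks on list genes numbered 4 to 9 under the alternatives. Alternatives for member peaks gave no value, as there were no such peaks. Leaving out replicates and another count model were not run, since the tables hold no single libraries. No paired analysis was possible because the columns carry no replicate numbers.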

Other observations

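Neighbouring machinery of the ER was described by 2 further lists, to be set beside the 6.8% called higher and 7.07% called lower among all tested genes. As above, these shares are not matched for level. Of 20 genes for translocation into the ER and removal of signal peptides, 3 fell and none rose, with a median log2 fold change of -0.07. Srp54a, a subunit of the signal recognition particle, was at -0.44 ± 0.14 with an adjusted DESeq2 p of 0.012, and Sec63, which works with BiP at the channel, was at -0.26 ± 0.08 with an adjusted p of 0.015. After centring on the median gene 1 was called lower, and with all values raised by 0.1, 1 was higher and 1 lower. Of 7 ER-phagy receptors, which hand parts of the ER to autophagosomes, 2 rose and none fell, with a median of 0.04. Retreg1 (FAM134B) rose by 0.50 ± 0.12 with an adjusted p of 7.03e-04, and Rtn3 by 0.27 ± 0.12 with an unadjusted p of 0.019 and an adjusted p of 0.10. Ccpg1, at -0.18 ± 0.06, and Sec62, at -0.24 ± 0.08, were not called, and with all values lowered by 0.1 the list had 1 gene called higher and 2 lower.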
